A study of Bos taurus with 6 samples.

Results

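The subunits of the vacuolar proton pump (V-ATPase) were compared between bovine blastocysts and granulosa cells. The members are the probes annotated to 10 genes: ATP6V0D2, ATP6V0A4, ATP6V0D1, ATP6V0A1, ATP6V0C, ATP6V1A, ATP6V1B2, ATP6V1C1, ATP6V1E1 and ATP6V1H. They are 18 probes of the 21790 on the array that carry a gene symbol, and the 10 genes are among 15216 named genes. The members were selected on the log2 ratios of blastocyst over granulosa signal on these arrays, in which ATP6V0D2 ranked 1 and ATP6V0A4 ranked 3 towards blastocysts among 13227 tested genes, and their ratios are therefore a description with no p-value. The remaining 15 subunit and accessory genes of the pump, with 26 probes, were listed for comparison and tested.

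Blastocysts were produced in vitro from oocytes of abattoir ovaries, aspirated from 3 to 6 mm follicles, fertilised with semen mixed from 3 bulls and collected on day 7. Granulosa cells, the somatic cells lining the ovarian follicle, came from lactating Holstein cows on day 8 to 11 after oestrus and were taken 44 h after the last of 6 injections, each with 40 mg of FSH, the hormone that makes follicles grow. Both amplified RNAs were hybridised together on 6 two-colour arrays as 3 biological replicates with the dyes exchanged, and the 2 arrays of a replicate were averaged. How many embryos or cows each RNA pool held is not stated, so the spread between replicates may be partly technical.

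The V-ATPase is a rotary enzyme that uses ATP to move protons out of the cytosol, into endosomes, lysosomes, the Golgi and secretory vesicles, and, in some epithelia and in osteoclasts, across the cell surface. Its cytosolic sector, V1, splits ATP with alternating A and B subunits. Its membrane sector, V0, carries protons through a ring of c subunits turning against the large a subunit, and the d subunit couples the ring to the central stalk. Several subunits exist as paralogs. In humans and mice the a4, d2, B1, C2 and G3 forms are found mainly in acid-secreting epithelia such as kidney, d2 and a3 also in osteoclasts, G2 in neurons and E2 in testis, whereas the forms a1, a2, d1, B2, C1, E1 and G1 are more widely expressed.

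Marker genes separated the cell types in part. Of 8 listed blastocyst markers, 5 were higher in blastocysts, and of 7 tested granulosa markers, 3 were higher in granulosa cells. The granulosa RNA pools differed from each other. Of 12 listed leukocyte and osteoclast markers, 7 were bright enough to be tested, ITGAM, CSF1R and ACP5 were not, and 1, CTSK, was higher in granulosa cells. The summed raw intensity of these 7 was 42711 and 44463 in the granulosa channel of replicate 1, 3541 and 5120 in replicate 2, and 2004 and 2981 in replicate 3, against 1301 to 1946 in the blastocyst channel. The 6 genes listed for theca and stroma were CYP17A1, INSL3, STAR, LHCGR, COL1A1 and COL3A1. How much of their signal came from the granulosa cells themselves was not tested. For these 6 genes the granulosa sums were 40387 and 41551, 48700 and 52991, and 2226 and 3172 in the same order, against 1867 to 2628 in blastocysts. For 5 endothelial markers they were 6074 and 7664, 4953 and 7027, and 878 and 1451, against 912 to 1358. KRT8, an epithelial keratin listed as a blastocyst marker, differed in the granulosa channel with the dye in every replicate. With granulosa RNA in Cy5 against Cy3 it read 6495 against 844, 34533 against 3906 and 2635 against 228 in replicates 1 to 3. On the array with 34533, the granulosa raw intensity of ATP6V0D2 was 228. What raised KRT8 there was not tested. To pass, a probe needed an adjusted p under 0.05 (limma, Benjamini-Hochberg over 35034 tested probes) and a log2 ratio no smaller than 1 in size, and 10.1% of tested probes did. No probe on the array passed without replicate 2, where the smallest adjusted p was 0.0546 and 8497 probes had an unadjusted p under 0.05. Every call given here therefore carries this exception.

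The d subunit was the clearest case of paralogs parting between the cell types. ATP6V0D2, the d2 form, had log2 intensities of 14.42, 13.99 and 13.91 in blastocysts of replicates 1 to 3 and of 7.49, 7.21 and 6.89 in granulosa cells. The groups were far apart in every replicate, and on 2 of 6 arrays the granulosa signal was not above background. The log2 ratio of blastocyst over granulosa was 6.91 ± 0.12 (SD, n = 3), it was positive on all 6 arrays, and it was 6.27 without background correction. In these bulk RNAs, more cells with the transcript and more transcript per cell cannot be told apart. ATP6V0D1, the widely expressed d1 form, read 10.53, 10.64 and 10.72 in blastocysts and 11.43, 11.42 and 10.87 in granulosa cells. Its log2 ratio was -0.61 ± 0.40 (SD, n = 3), it was negative on all 6 arrays, and the levels of the cell types did not overlap. Within each replicate the ratio of ATP6V0D2 exceeded that of ATP6V0D1 by 7.84, 7.55 and 7.17 on the log2 scale, with a mean of 7.52 ± 0.33 (SD, n = 3), or 6.85 without background correction. Neither gene has a second probe, and intensities of different probes were not set against each other.

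**Figure D1:**
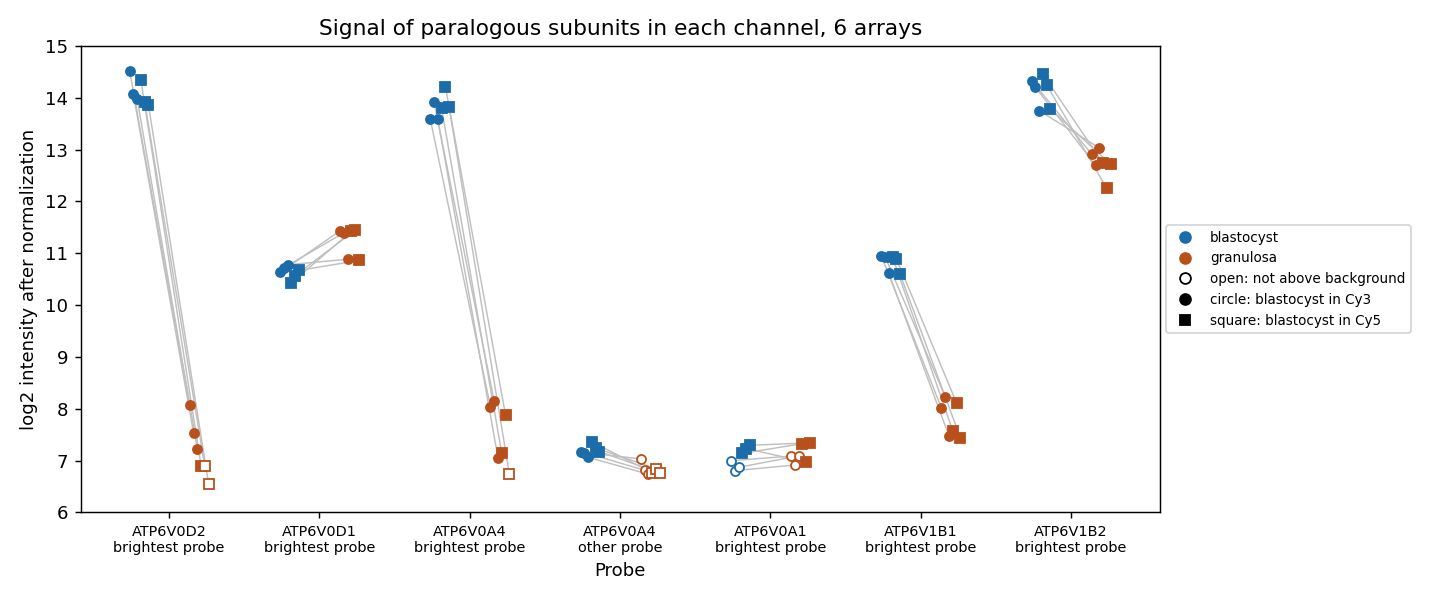
Normalized log2 intensity (y axis) of 7 probes of paralogous subunits (x axis) in the blastocyst (blue) and granulosa (orange) channels of 6 arrays, with grey lines joining the channels of an array, circles for blastocyst RNA in Cy3 and squares for Cy5, and open symbols for signal not above background. ATP6V0D2, the brightest ATP6V0A4 probe and the brightest ATP6V1B1 probe lie far higher in blastocysts on every array, ATP6V0D1 lies slightly higher in granulosa cells, and the other ATP6V0A4 probe and the ATP6V0A1 probe stay near background in both.

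The a subunit, which forms the proton half-channels against the ring and decides where the pump is sent in the cell, has 4 paralogs. ATP6V0A4, the a4 form, read 13.69, 14.06 and 13.70 in blastocysts and 7.59, 8.01 and 6.90 in granulosa cells by its brightest probe. The channels did not overlap, and the granulosa signal was above background on 5 of 6 arrays. The log2 ratio was 6.32 ± 0.42 (SD, n = 3). A second ATP6V0A4 probe was dim in both channels, at 7.26, 7.20 and 7.12 in blastocysts and 6.90, 6.83 and 6.75 in granulosa cells. It was above background on all 6 arrays in blastocysts and on none in granulosa cells, and its log2 ratio was 0.37.

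ATP6V0A1, the a1 form, showed no difference that this probe could resolve. Its log2 intensities were 7.07, 7.02 and 7.08 in blastocysts and 7.21, 6.94 and 7.22 in granulosa cells, and in each cell type it was above background on 3 of 6 arrays, all of them with blastocyst RNA in Cy5. The log2 ratio was -0.07 ± 0.12 (SD, n = 3). The shift of ATP6V0A4 against ATP6V0A1 was 6.38 ± 0.50 on the log2 scale (SD, n = 3), nearly all of it from ATP6V0A4, and it rests on an ATP6V0A1 probe at the limit of detection. The a2 form, ATP6V0A2, had 3 probes with signal on all 6 arrays in both cell types and log2 ratios of 0.42, 0.50 and 0.75, none of which passed. The shift of ATP6V0A4 against ATP6V0A2 was 5.89 ± 0.91. TCIRG1, the a3 form of osteoclasts and secretory lysosomes, gave -0.76 ± 1.45 (adjusted p = 0.453), and its replicates are described with the differences between granulosa pools.

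**Figure D2:**
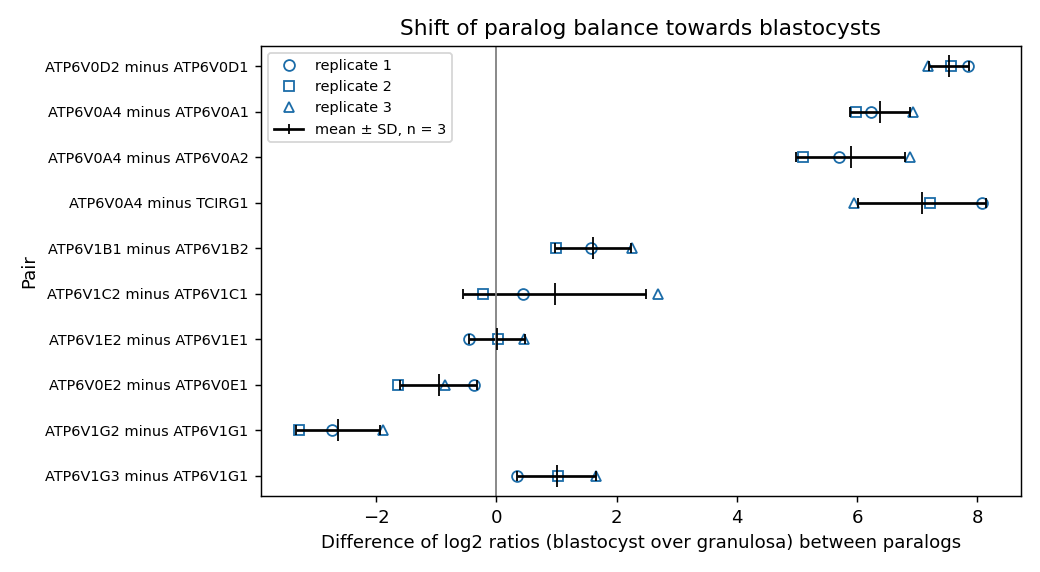
Difference between paralogs in their log2 ratio of blastocyst over granulosa (x axis) for 10 pairs of subunit genes (y axis), each by its brightest tested probe, with a symbol per replicate and black bars for the mean ± SD (n = 3). The pairs with ATP6V0D2 and ATP6V0A4 lie between 5.10 and 8.07 in every replicate, ATP6V1G2 against ATP6V1G1 is negative in every replicate, and ATP6V1C2 against ATP6V1C1 spans 0.

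By their brightest probes, the transcripts of the proton-carrying ring were moderately higher in blastocysts. ATP6V0C, the c subunit that binds the protons, read 12.11, 12.27 and 11.88 in blastocysts and 11.20, 10.49 and 10.53 in granulosa cells by its brightest probe. Every replicate was higher in blastocysts, with a log2 ratio of 1.35 ± 0.44 (SD, n = 3), while its other probe gave 0.86 ± 0.66. ATP6V0B, the related c'' subunit of the ring, rose in blastocysts by 1.20 ± 0.34 (2.30-fold, adjusted p = 0.0287, 6 of 6 arrays). The call of ATP6V0B was lost when any replicate was left out, with log2 ratios from 1.02 to 1.36. The brightest ATP6V0C probe likewise did not pass with any replicate left out, with log2 ratios from 1.13 to 1.57. The small e subunits did not pass, with 0.45 ± 0.47 for ATP6V0E1 (adjusted p = 0.233) and -0.51 ± 0.22 for ATP6V0E2 (adjusted p = 0.0664). The accessory subunits did not pass either. ATP6AP1, which takes part in V0 assembly, gave 0.57 ± 0.43 (adjusted p = 0.149), and ATP6AP2, also known as the prorenin receptor, gave -0.49 ± 0.18 (adjusted p = 0.0541).

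Among the V1 members, the catalytic ATP6V1A depended on the probe. Its brightest probe read 12.70, 12.93 and 12.75 in blastocysts and 12.44, 12.24 and 12.48 in granulosa cells, a log2 ratio of 0.41 ± 0.24 (SD, n = 3). A second probe, dim at 7.68, 7.93 and 7.83 against 7.39, 7.36 and 7.43, gave 0.42 ± 0.14. The remaining probe read 10.36, 10.52 and 10.27 in blastocysts and 7.68, 7.46 and 7.41 in granulosa cells, gave 2.87 ± 0.19 (7.29-fold). Where in the transcript each probe lies was not analysed here.

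ATP6V1B2, the widely expressed B form that shares the nucleotide sites with A, read 14.39, 14.23 and 13.77 in blastocysts and 12.82, 12.47 and 12.87 in granulosa cells by its brightest probe. The channels did not overlap, and the log2 ratio was 1.40 ± 0.45 (SD, n = 3). Its other probes gave 1.03 ± 0.71 and -0.41 ± 0.23, the latter negative on all 6 arrays. ATP6V1H, a regulatory subunit that in yeast keeps detached V1 from splitting ATP, read 10.59, 11.35 and 11.27 against 9.65, 9.79 and 9.76. The log2 ratio was 1.34 ± 0.34, and its remaining 2 probes were too dim to be tested.

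The stalk members showed smaller ratios. ATP6V1C1, which bridges the sectors and in yeast leaves the pump when it disassembles, read 11.18, 10.92 and 10.87 in blastocysts and 10.81, 10.31 and 11.40 in granulosa cells. Its replicates went both ways, at 0.37, 0.61 and -0.53, with a mean of 0.15 ± 0.60 that turned to -0.08 without replicate 2. ATP6V1E1, a peripheral stalk subunit, read 10.50, 10.38 and 9.99 against 10.50, 10.80 and 10.69, a log2 ratio of -0.37 ± 0.35. The levels were equal in replicate 1 and lower in blastocysts in the others.

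**Figure D3:**
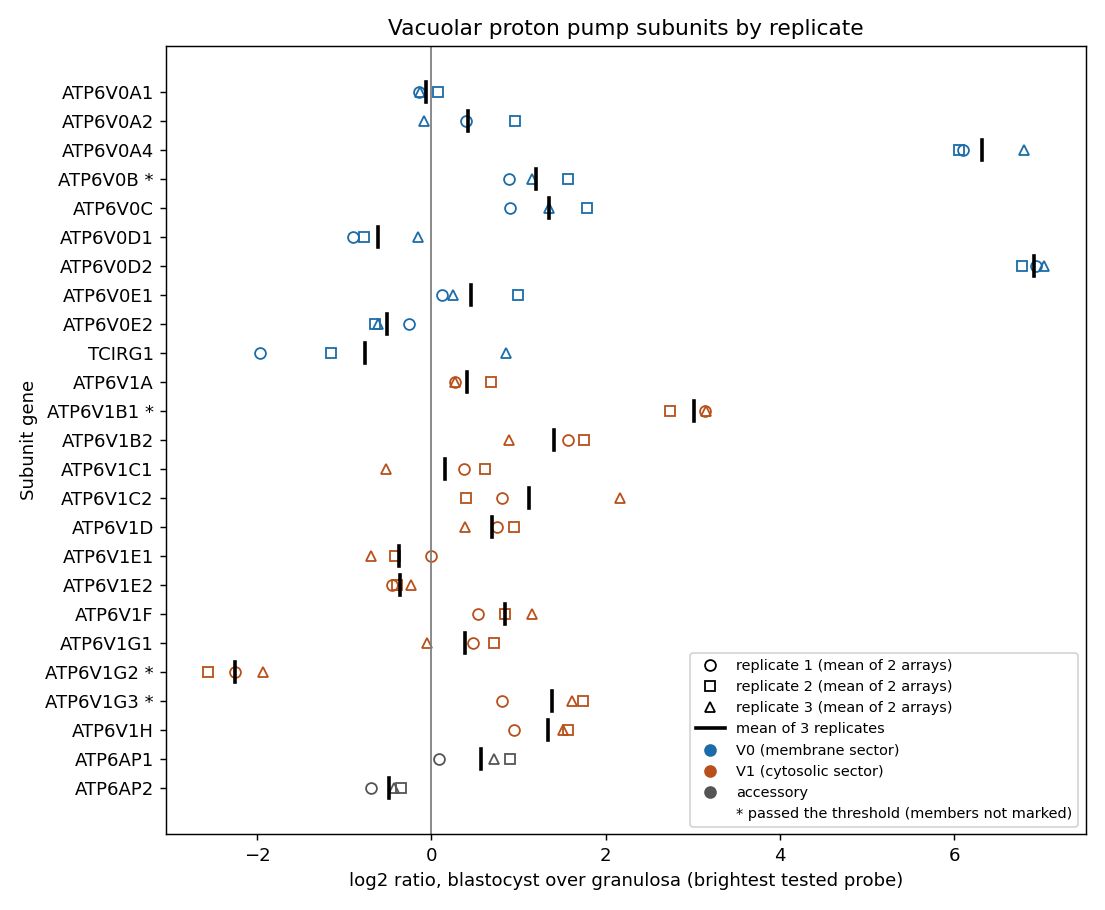
Log2 ratio of blastocyst over granulosa (x axis) for 25 subunit and accessory genes of the pump (y axis), by the brightest tested probe, with a symbol for each replicate (mean of 2 arrays), a black bar for the mean and, for the 15 genes outside the member set, an asterisk where the probe passed the threshold. ATP6V0D2 and ATP6V0A4 stand apart at 6.91 and 6.32, ATP6V1B1 follows at 3.01, ATP6V1G2 is the lowest at -2.25, and the replicates of TCIRG1 lie on both sides of 0.

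Among the subunits outside the member set, ATP6V1B1, the B form of acid-secreting epithelia, had the largest difference. By its brightest probe it read 10.93, 10.91 and 10.60 in blastocysts and 7.79, 8.17 and 7.46 in granulosa cells. The blastocyst signal exceeded that of granulosa cells 8.05-fold (adjusted p = 0.00561, 6 of 6 arrays), a log2 ratio of 3.01 ± 0.23. A second probe passed too (1.88 ± 0.09, adjusted p = 0.00479), and the remaining one, above background on no granulosa array, gave -0.05 ± 0.06. The B1-to-B2 balance moved towards blastocysts in each replicate, by 1.58, 0.98 and 2.25 on the log2 scale.

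The G subunits of the peripheral stalk went in opposite directions. ATP6V1G3 rose in blastocysts by 1.39 ± 0.50 (adjusted p = 0.0426), although its other probe gave 0.44 ± 0.20 (adjusted p = 0.0749), and its call was lost without replicate 3 (1.28). Its granulosa signal was above background on 3 of 6 arrays, so it dropped out under a filter for signal in both channels of all arrays. ATP6V1G2 was 4.76-fold higher in granulosa cells, at log2 intensities of 9.71, 10.85 and 9.91 against 7.45, 8.29 and 7.98 in blastocysts. Its log2 ratio was -2.25 ± 0.32 (adjusted p = 0.0101, negative on 6 of 6 arrays), and the call was lost without replicate 1. ATP6V1G1, the common form, gave 0.38 ± 0.39 (adjusted p = 0.234).

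The remaining V1 subunits did not pass. ATP6V1F, a subunit of the central stalk, gave 0.85 ± 0.31 (adjusted p = 0.0472, below the log2 ratio of 1 required), and ATP6V1D, the stalk's rotating axle, gave 0.69 ± 0.29 (adjusted p = 0.0573). ATP6V1C2 gave 1.12 ± 0.92 (adjusted p = 0.165) with replicates of 0.81, 0.39 and 2.16. It passed where the 6 arrays were fitted with the replicate number as a block (adjusted p = 0.0204). That fit put the correlation within a replicate at -0.0018, so it counted the 6 arrays nearly as independent samples. ATP6V1E2 gave -0.36 ± 0.11 (adjusted p = 0.0536) near background in both cell types.

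Counted over genes by the brightest probe, 5 of the 10 members passed as higher in blastocysts and none as higher in granulosa cells, while 5.69% of all tested genes passed as higher in blastocysts and 7.66% as higher in granulosa cells. Nothing is read from the members' count, since these ratios chose them. Of the 15 other subunit genes, 3 passed as higher in blastocysts and 1 as higher in granulosa cells, against 13.4% of all tested genes in either direction. The median log2 ratio was 0.87 over the members and 0.45 over the other subunits, beside -0.02 over all tested genes. Among these 15, 1 of 5 V0 genes and 2 of 8 V1 genes rose in blastocysts and 1 V1 gene fell. Of the 6 among them that are tissue-restricted in humans or mice, 2 rose in blastocysts and 1 fell, with log2 ratios from -2.25 to 3.01. Of the other 9, grouped here as broadly expressed, 1 rose and none fell, with log2 ratios from -0.51 (ATP6V0E2) to 1.20. How broadly ATP6V0E2 is expressed was not looked up. By probe, 6 of 16 tested member probes passed, all higher in blastocysts, a direction in which 4.93% of all tested probes passed, against 5.18% in the opposite one. That number was 5 without replicate 1, 0 without replicate 2 and 4 without replicate 3.

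Probes of the same gene often disagreed. Over the 10 subunit genes with more than 1 tested probe, the gap between the highest and the lowest log2 ratio of a gene was 5.95 for ATP6V0A4, 3.06 for ATP6V1B1, 2.46 for ATP6V1A and 1.81 for ATP6V1B2, and 0.09 to 0.95 for the other 6 genes. In ATP6V0A4 and ATP6V1B1 the low value came from a probe above background on no granulosa array, and in ATP6V1A and ATP6V1B2 every tested probe was above background on all 6 arrays in both channels. The mean over probes was 3.34 for ATP6V0A4, 1.61 for ATP6V1B1, 1.23 for ATP6V1A and 0.68 for ATP6V1B2.

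**Figure D4:**
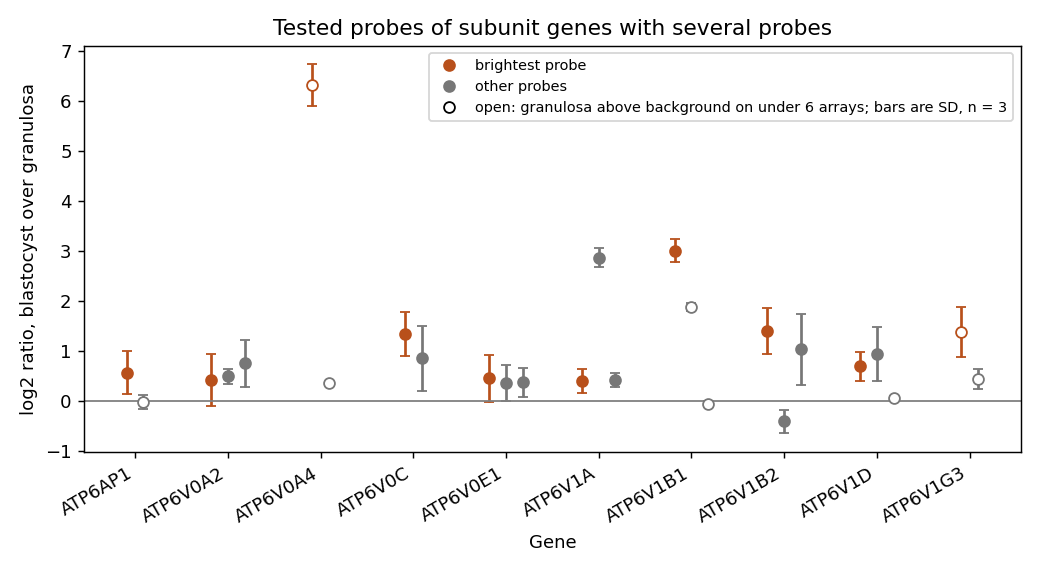
Log2 ratio of blastocyst over granulosa (y axis, mean ± SD, n = 3) of each tested probe of the 10 subunit genes with several probes (x axis), ordered within a gene from the brightest, with the brightest in orange, the others in grey and open symbols for probes above background on fewer than 6 granulosa arrays. The probes of ATP6V0A4 lie at 6.32 and 0.37 and those of ATP6V1A at 0.41, 0.42 and 2.87, while the 3 probes of ATP6V0E1 lie within 0.09 of each other.

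The ratios of the 3 replicates were compared, against the spread of the arrays within a replicate, with limma's F test, which the choice of members did not use. The arrays of a replicate were taken to share their RNA, from their common number and their correlation. On that reading this spread is technical, and the test sets apart these pools, not animals. Of 41 tested subunit probes, 10 in 9 genes differed between replicates at an adjusted p under 0.05, or 24.4%, against 10.4% of all tested probes. Fewer subunit probes differed with median centring in place of loess. The share over all probes was not counted there, so whether the excess holds is not known. Of these 10, 8 had their highest ratio in replicate 2, both ATP6V0C probes among them. The same share over all probes that differed was not counted, so nothing is read from this number. No difference between replicates was detected for ATP6V0D2 (adjusted p = 1.00) or ATP6V0A4 (adjusted p = 0.604), with 2 arrays a replicate. The test held no dye term, so the gap between dye orientations counted as spread within a replicate and can hide differences. This gap, blastocyst in Cy3 minus Cy5, was -0.69 for ATP6V0D2 and -0.74 for ATP6V0A4. In both orientations the ratio of ATP6V0A4 was highest in replicate 3 (6.53 and 7.07). Both ATP6V0C probes differed (adjusted p = 0.0426 and 0.0158), with ratios of 0.91, 1.78 and 1.35 by the brightest and 0.10, 1.31 and 1.15 by the other. ATP6V1C1 (adjusted p = 0.0472) and 1 probe of ATP6V1B2 (adjusted p = 0.0300) differed as well.

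TCIRG1 had the smallest p of this test among the subunits (adjusted p = 0.000823). Its log2 ratios were -1.97, -1.16 and 0.85 in replicates 1 to 3. Blastocyst intensities were 9.37, 9.50 and 9.67, and granulosa intensities were 11.35, 10.66 and 8.82, so the pools differed mostly on the granulosa side. The granulosa pools with the higher TCIRG1 signal, 1 and 2, also held the higher summed intensity of leukocyte and osteoclast markers, of theca and stroma markers and of endothelial markers given above, and their part in the TCIRG1 ratio was not tested. ATP6V0D1 was likewise higher in granulosa pools 1 and 2 (11.43 and 11.42) than in pool 3 (10.87), although its difference between replicates did not pass (adjusted p = 0.0671). Other subunits went the opposite way. ATP6V1C1 (10.81, 10.31 and 11.40) and 1 ATP6V1D probe (9.32, 8.91 and 9.96) were highest in granulosa pool 3. Both differed between replicates by the F test (adjusted p = 0.0472 and 0.0267). ATP6V0D2, itself a gene of osteoclasts and macrophages, read 7.49, 7.21 and 6.89 in granulosa pools 1 to 3. These levels are near background, and what such cells added to them was not tested.

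**Figure D5:**
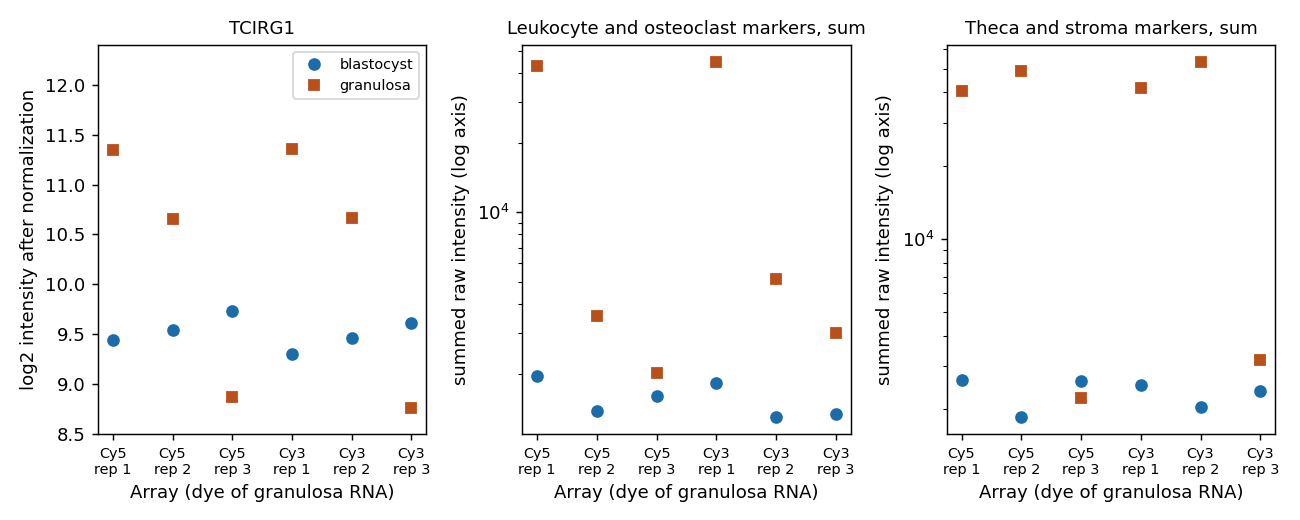
TCIRG1 log2 intensity (left), summed raw intensity of 7 leukocyte and osteoclast markers (middle, log axis) and of 6 theca and stroma markers (right, log axis) in the blastocyst (blue circles) and granulosa (orange squares) channels of the 6 arrays, labelled by the dye of the granulosa RNA and the replicate. Granulosa signal is lowest in replicate 3 in all panels, and blastocyst signal of TCIRG1 stays between 9.30 and 9.74.

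Genes were also ranked by Euclidean distance over the 6 array log2 ratios. The ratios were not centred, so this distance mainly finds genes with ratios of like size, and shared regulation was not tested. ATP6V0D2 and ATP6V0A4 were chosen for large ratios, so their nearness to each other is a description. The named genes nearest to ATP6V0D2 were TFAP2C (0.97), a trophectoderm transcription factor, ATP6V0A4 (1.60), the folate receptor FOLR1 (2.30), C3H1orf146 (2.32) and SUSD2 (2.40). The median distance over all genes was 17.0. For ATP6V0A4 they were FOLR1 (0.87), C3H1orf146 (0.99), SUSD2 (1.13), TFAP2C (1.41) and ATP6V0D2 (1.60). These neighbours are for the brightest probes, and the mean over all probes was 3.32 for TFAP2C, 4.10 for FOLR1 and 3.91 for C3H1orf146, against 6.79, 6.01 and 6.04 by the brightest. TFAP2C was over 30000 raw intensity units, near the scanner's upper limit, on all 6 arrays in blastocysts, and ATP6V0D2 and ATP6V0A4 were so on none.

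Genes that work with the pump showed no common direction. Over all tested genes, 5.69% passed as higher in blastocysts and 7.66% as higher in granulosa cells, and the counts below were not tested against these shares. Of 10 tested assembly and regulatory factors, NCOA7, whose TLDc domain binds the V1 sector, was higher in granulosa cells (-5.96 ± 0.76, adjusted p = 0.00850, with -1.96 by its other probe), and none was higher in blastocysts. In the list of lysosomal nutrient sensing, TFEB, a transcription factor of lysosomal genes, rose in blastocysts (1.21 ± 0.45, adjusted p = 0.0445), and the Rag GTPases RRAGD (-2.78 ± 0.60, adjusted p = 0.0174) and RRAGB (-1.57 ± 0.19, adjusted p = 0.00940) were higher in granulosa cells, of 15 tested. The median log2 ratios of these lists were -0.03 and 0.03. The call of TFEB was lost without any of the replicates, and that of RRAGD without replicate 3.

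Of 39 tested lysosomal genes, 29 did not pass, 5 passed towards blastocysts and 5 towards granulosa cells, beside the 5.69% and 7.66% of all tested genes in these directions, with a median of -0.04. CTNS, the cystine carrier of lysosomes, rose in blastocysts (3.34 ± 0.40, adjusted p = 0.00804) by its brightest probe while its other probes gave 0.62, 0.26 and -0.13. GM2A, the ganglioside activator (2.67 ± 0.27), CLN3 (2.29 ± 0.67), and OSTM1, partner of the lysosomal chloride exchanger (1.08 ± 0.40, with -0.96 by its other probe), rose as well, with an adjusted p at or below 0.0447. Higher in granulosa cells were the acid lipase LIPA (-2.87 ± 0.71), the protease CTSC (-2.27 ± 0.66), the membrane protein SCARB2 (-2.08 ± 0.67, with -3.98 and -1.82 by its other probes) and CD63 (-1.58 ± 0.36, with -0.24 by its other probe), with an adjusted p at or below 0.0346. Without replicate 1 the calls of CLN3, OSTM1, LIPA and SCARB2 were lost, and without replicate 3 those of OSTM1, CTSC, SCARB2 and CD63.

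Of 28 tested carriers and enzymes of proton and bicarbonate transport, 2 passed towards blastocysts and 1 towards granulosa cells. Over all tested genes these shares were 5.69% and 7.66%. ATP12A, the non-gastric proton-potassium pump, rose in blastocysts (1.95 ± 0.21, adjusted p = 0.00791), as did CLCN3, an endosomal chloride-proton exchanger (1.89 ± 0.45, adjusted p = 0.0214). CLCN4, its paralog, was higher in granulosa cells (-1.27 ± 0.25, adjusted p = 0.0163). The calls of CLCN3 and CLCN4 were lost without replicate 1 and without replicate 3.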

How the data were processed

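The 6 arrays were 2-colour oligonucleotide arrays of amplified, Cy3- and Cy5-labelled RNA, per the labels' protocols. Per the file headers, each file gives raw mean intensity and local background at 532 nm, read as Cy3, and at 635 nm, read as Cy5. One file lists the wavelengths in reverse order, and columns were read by wavelength name. The authors' deposited value table holds a score. Per its values, its size without the sign is the quotient of the channels' log2 net intensities (100% of values within 1e-04). With the sign, the medians were -0.998, -0.998 and -1.00 on arrays with blastocyst RNA in Cy3 and 0.999 to 1.00 on the others. Scanner and build: not given in the sources used here.

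Intensities were corrected with normexp (offset 50) and normalized by loess in limma 3.58.1 (R 4.3.3). Channel levels are log2 intensities after Aquantile. Tests covered the 35034 of 43794 probes that in either cell type lay above background, the 95th percentile of 153 negative controls, on 3 or more of 6 arrays. Same-numbered arrays of opposite dye were averaged, since deviations from the mean of their dye orientation correlated at 0.85 to 0.93 within a number, and lmFit and eBayes tested whether the mean over 3 replicates differed from 0. All adjusted p-values come from limma. The numbers come from the titles. Symbols came from the array's probe table and were updated through RefSeq names (ARS-UCD2.0), which matched 20025 as current and 1524 as synonyms.

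The brightest tested probe stood for a gene. Named were all subunits, up to 4 passing genes in each direction of every other list, and the 5 genes nearest to ATP6V0D2 and to ATP6V0A4. Members, lists, rules and tests were chosen with earlier results of these data known. The fits were run on simulated data with the spread between replicates set below that of these arrays, as a check of the calculation only. Figures used Python 3.11.15 and matplotlib 3.10.9.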

Additional observations from a re-analysis of the deposited data

How the results depend on the processing

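No subunit gene changed direction under an alternative that gave it a value, except ATP6V1C1, which turned to -0.08 without replicate 2. The filter for signal above background in both channels of all 6 arrays gave none for ATP6V0D2, ATP6V0A4, ATP6V0A1, ATP6V1C2, ATP6V1E2 and ATP6V1G3. Over all probes 3541 passed, 0 to 2538 with a replicate left out. Subunit probes that passed numbered 11 of 41 tested, beside 10.1% of all tested probes. Under that filter they numbered 7 of 29, beside 16.5%, and with a replicate left out 0 to 8. Member probes numbered 6, and 0 to 5 with a replicate left out. The 6 arrays fitted with the replicate number as a block gave 4926 probes, with a dye term as well 4817, and without the block 4926. The correlation within a replicate was -0.0018 with the block alone, so that block had almost no effect, and 0.66 with the dye term. These fits changed no subunit call but those of ATP6V1C2, which passed in each of them (adjusted p = 0.0204 to 0.0386), and of the ATP6V1B2 probe at 1.03, which made 7 member probes. The shift of ATP6V0D2 against ATP6V0D1, 7.52, became 6.85 without background correction and 7.06 from the deposited net intensities. That of ATP6V0A4 against ATP6V0A1, 6.38, became 5.85 without background correction and 3.41 as the mean over probes, which takes in the dim ATP6V0A4 probe. With median centring 6 subunit probes in place of 10 differed between replicates. The share over all probes was not counted under that setting, and the cause was not tested. Without normalization the median log2 ratio of all probes moved from -0.01 to -0.20. Without background correction TFEB and OSTM1 lost their calls, and with the mean of all probes ATP6V1G3, OSTM1 and CD63 did. Signals near background limit what ATP6V0A1, ATP6V1E2 and the dim second probes can show.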
